A study of Mus musculus with 9 samples.

Results

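The 10 genes followed here are ones that the tumour suppressor p53 is known to switch on, and they were measured in leukaemia cells depleted of the RNA-binding protein SYNCRIP. They are Mdm2, Trp53inp1, Zmat3, Ccng1, Phlda3, Sesn1, Sesn2, Fas, Tnfrsf10b and Fdxr, 10 of the 38926 gene symbols in the tables, chosen by name as established p53 targets other than Cdkn1a. All 10 had enough counts to be tested, among 12663 genes tested in all. The cells are murine myeloid leukaemia cells that carry the MLL-AF9 fusion, the product of a chromosomal translocation, and had been passaged through mice to the tertiary transplant. The labels also call them a cell line. All 9 libraries carry the fusion and all were transduced with a short hairpin RNA (shRNA). The control group has 3 libraries of a control hairpin, the shRNA-1 group 3 libraries of one hairpin against Syncrip, and the shRNA-2 group 3 libraries of another, all collected at day 4 after transduction. The control hairpin is described as directed against luciferase in the series' design text and as scrambled in the sample labels. Each culture was transduced on its own, and no source used here says whether the cultures came from separate mice, so the p-values measure the spread between cultures of 1 leukaemia model.

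p53 is a transcription factor that cells stabilise after DNA damage, oncogene activity and other stress. Its targets halt the cell cycle, repair or limit damage, restrain growth signalling or start cell death, and 1 of them, Mdm2, encodes the ubiquitin ligase that destroys p53 itself. In myeloid leukaemia the pathway is a well-known brake on self-renewal, and leukaemias with the MLL-AF9 fusion often keep the p53 gene intact.

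p53 binds paired copies of a decamer, the p53 half-site, with a short spacer or none between them. The 300 bases around annotated starts (250 before and 50 after, RefSeq on GRCm38.p6) were at hand for 7 of the 10 genes, in 8 windows because Sesn1 has 2 starts. A half-site without mismatch, whose pattern is its own reverse complement so that both strands are covered, stood in 3 of the 8 windows and in 8.36% of all 32851 windows of this length. The 3 windows are shown because they hold the pattern, with the half-sites in capitals. In the second Sesn1 window a pair of half-sites with a spacer is marked, found by a search that allowed 13 spacer bases and 2 mismatches outside the half-site cores, and 2.12% of all windows held such a pair.
Mdm2, chr10:117710709-117711008, minus strand: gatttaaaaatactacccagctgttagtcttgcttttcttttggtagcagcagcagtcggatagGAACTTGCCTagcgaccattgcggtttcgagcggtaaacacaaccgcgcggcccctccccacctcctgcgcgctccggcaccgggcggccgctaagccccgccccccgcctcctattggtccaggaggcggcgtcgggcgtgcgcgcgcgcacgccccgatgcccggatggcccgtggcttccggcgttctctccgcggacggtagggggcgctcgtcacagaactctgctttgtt
Ccng1, chr11:40755237-40755536, minus strand: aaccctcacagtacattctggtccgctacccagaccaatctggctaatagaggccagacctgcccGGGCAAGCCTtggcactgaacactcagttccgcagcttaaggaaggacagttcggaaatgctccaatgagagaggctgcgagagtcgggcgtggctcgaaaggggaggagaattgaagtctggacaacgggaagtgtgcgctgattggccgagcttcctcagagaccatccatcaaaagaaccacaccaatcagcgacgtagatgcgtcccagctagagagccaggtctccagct
Sesn1, second start, chr10:41887189-41887488, plus strand: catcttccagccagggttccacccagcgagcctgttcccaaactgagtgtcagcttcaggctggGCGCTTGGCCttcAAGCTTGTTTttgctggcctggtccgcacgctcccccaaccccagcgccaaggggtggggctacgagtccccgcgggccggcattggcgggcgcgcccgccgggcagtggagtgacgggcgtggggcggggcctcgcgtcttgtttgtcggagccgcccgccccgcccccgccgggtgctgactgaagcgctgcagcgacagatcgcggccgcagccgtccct
The half-site began 186 bases before the start of Mdm2, 185 before that of Ccng1 and 173 before the second start of Sesn1. Of these 3 genes, Ccng1 rose with both hairpins, Sesn1 with shRNA-2, and Mdm2 was called with neither. The matches are letters in a window and show no binding. The p53 sites known for Mdm2 and Fas lie in first introns, outside these windows.

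The targeted transcript was checked first. Syncrip stood at 241, 231 and 207 CPM (counts scaled to library size with TMM factors) in the control libraries, at 20.1, 15.9 and 17.3 with shRNA-1 and at 63.2, 46.3 and 60.4 with shRNA-2. The groups did not overlap. The log2 fold change was -3.68 ± 0.16 (standard error) for shRNA-1, and for shRNA-2 its 95% interval was -2.32 to -1.68 (adjusted p = 3.79e-07 and 2.19e-06, edgeR's quasi-likelihood test adjusted over all genes, as are all adjusted p-values given here).

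With shRNA-1, 5 of the 10 targets rose and 1 fell, where 17.4% of all tested genes rose and 17.3% fell at an adjusted p under 0.05. The median log2 fold change of the 10 was 0.62, against 0.02 over all genes. With shRNA-2, 7 rose and 1 fell, against 24.4% and 24.2% of all genes, and the medians were 0.82 and 0.00. Trp53inp1, Zmat3, Ccng1, Phlda3 and Fas rose with both hairpins, 5 of 10 where 9.24% of all genes did so, and Fdxr fell with both, 1 of 10 against 9.57%. Sesn1 and Sesn2 rose with shRNA-2, and Mdm2 and Tnfrsf10b were called with neither. The comparisons with the control share the same 3 control libraries, so their values are set side by side and are not independent of each other.

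**Figure D1:**
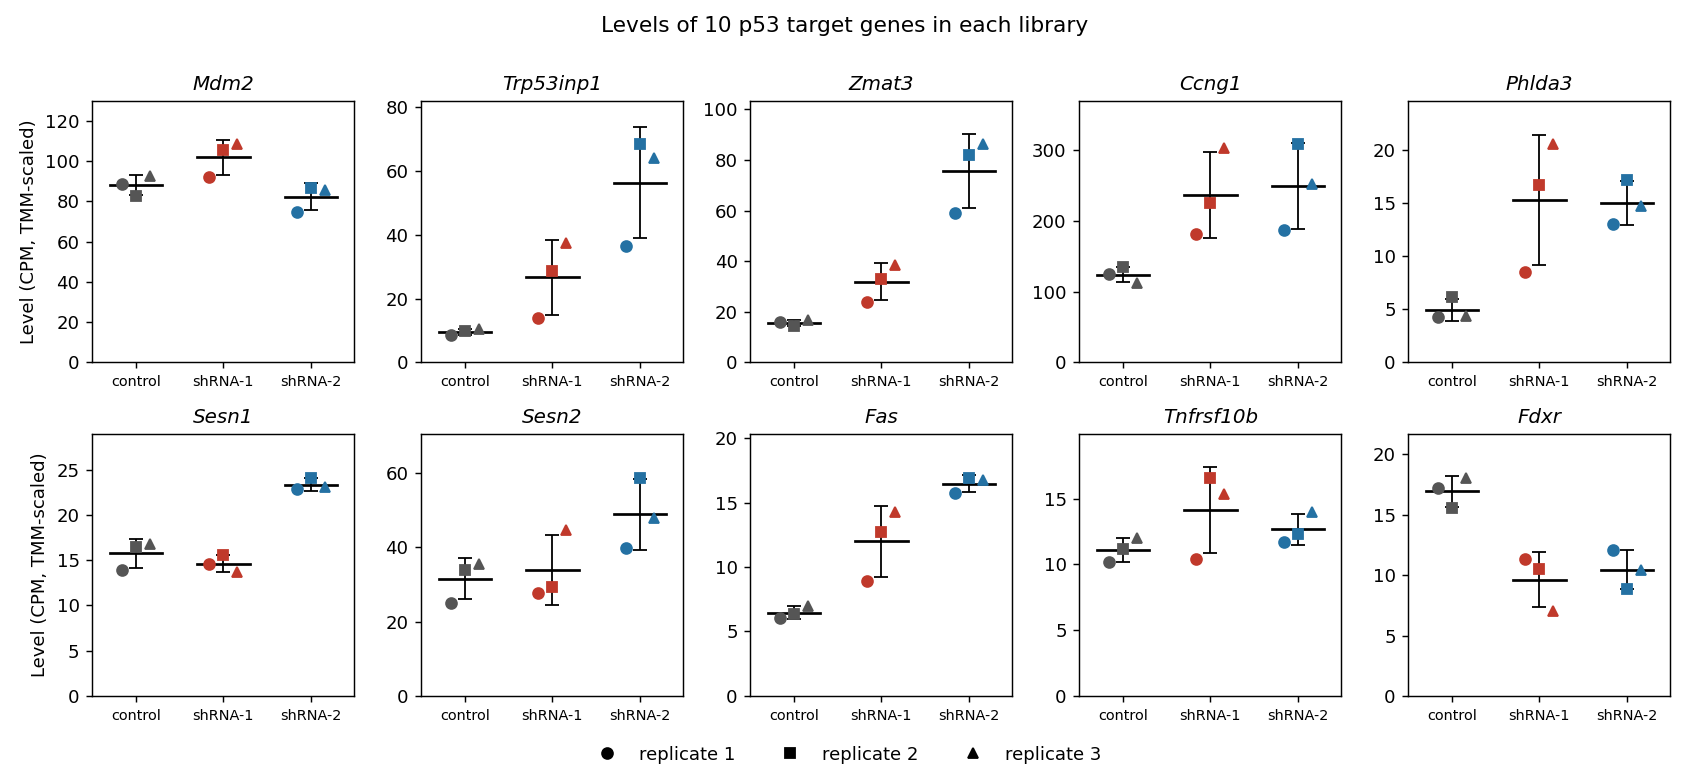
Level of each of the 10 genes in every library, in TMM-scaled CPM on linear axes that start at 0. Symbols mark the replicate number, horizontal lines the mean and bars the SD of 3 libraries. The control symbols lie below both hairpin groups for Trp53inp1, Zmat3, Ccng1, Phlda3 and Fas, and above both for Fdxr.

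Mdm2 (GRCm38, chr10:117688875-117710758, minus strand) encodes the main negative regulator of p53 and closes the feedback loop. Its level was 88.6, 82.9 and 92.7 CPM in the control libraries, 92.0, 106 and 108 with shRNA-1 and 74.6, 86.7 and 85.5 with shRNA-2. Both hairpin groups overlapped the control. The log2 fold change was 0.21 ± 0.12 with shRNA-1 (95% interval -0.04 to 0.47, adjusted p = 0.177) and -0.10 ± 0.12 with shRNA-2 (interval -0.35 to 0.15, adjusted p = 0.505). The upper bounds of these intervals lie below the log2 fold changes of Zmat3, Ccng1, Phlda3, Trp53inp1 and Fas with the same hairpins. With libraries scaled to total counts instead, Mdm2 was called lower with shRNA-2 at -0.32 (adjusted p = 0.0442). That scaling shifted the overall median to -0.23 for shRNA-1 and to -0.21 for shRNA-2, a shift that the Mdm2 value shares.

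Trp53inp1 (chr4:11156431-11174379, plus strand) encodes a stress-induced nuclear protein that takes part in p53 phosphorylation and in autophagy. The controls measured 8.57, 9.88 and 10.4 CPM. With shRNA-1 the values were 14.1, 28.8 and 37.4, and shRNA-2 gave 36.4, 68.4 and 64.2. Every hairpin library stood above every control. The gene rose 2.79-fold with shRNA-1 (log2 1.48 ± 0.32, adjusted p = 0.00434) and 5.85-fold with shRNA-2 (log2 2.55 ± 0.32, adjusted p = 6.36e-05).

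Zmat3 (chr3:32334792-32366014, minus strand) encodes a zinc finger RNA-binding protein that acts on splicing and mRNA stability downstream of p53. It was at 15.9, 14.5 and 16.8 CPM in the controls, at 24.1, 32.8 and 38.7 with shRNA-1 and at 59.0, 81.8 and 86.3 with shRNA-2. The 3 groups were fully separate, in the order control, shRNA-1, shRNA-2. Its fold was 2.03 with shRNA-1 (log2 1.02 ± 0.19, adjusted p = 0.00206) and 4.81 with shRNA-2 (log2 2.27 ± 0.19, adjusted p = 4.50e-06).

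Ccng1 (chr11:40748552-40755311, minus strand) encodes cyclin G1, which recruits a phosphatase to MDM2. Control libraries gave 125, 135 and 113 CPM, shRNA-1 libraries 182, 226 and 303, and shRNA-2 libraries 187, 309 and 252. Both hairpin groups stood above the control and lay in the same range as each other. The rises were 1.91-fold (log2 0.93 ± 0.21, adjusted p = 0.00513) and 2.01-fold (log2 1.01 ± 0.21, adjusted p = 0.00177).

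Phlda3 (chr1:135766119-135769136, plus strand) encodes a pleckstrin homology protein that competes with AKT for membrane lipids and so restrains AKT signalling. Its level was 4.26, 6.17 and 4.42 CPM in the controls, 8.57, 16.7 and 20.6 with shRNA-1 and 13.1, 17.2 and 14.8 with shRNA-2. All 6 hairpin libraries were above the controls. With shRNA-1 it rose 3.13-fold (log2 1.65 ± 0.28, adjusted p = 0.00130), the largest log2 rise of the 10 genes with that hairpin, and with shRNA-2 3.05-fold (log2 1.61 ± 0.28, adjusted p = 0.000583).

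The sestrins are stress-induced proteins that hold back the growth kinase complex mTORC1. Sesn1 (chr10:41809935-41908424, plus strand) was at 13.9, 16.5 and 16.8 CPM in the controls, 14.6, 15.6 and 13.7 with shRNA-1 and 22.8, 24.1 and 23.1 with shRNA-2. The shRNA-1 libraries overlapped the controls, and the shRNA-2 libraries were above both other groups. Its log2 fold change was -0.11 ± 0.13 with shRNA-1 (interval -0.39 to 0.18, adjusted p = 0.557), and it rose by 0.57 ± 0.13 with shRNA-2 (adjusted p = 0.00284). With total-count scaling the second value was 0.35 and was no longer called (adjusted p = 0.0700).

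Sesn2 (chr4:132492032-132510501, minus strand), which binds leucine and passes amino acid supply to mTORC1, is also a target of the amino acid and unfolded protein stress factor ATF4. Control levels were 25.1, 34.0 and 35.5 CPM, shRNA-1 levels 27.7, 29.3 and 44.7, and shRNA-2 levels 39.8, 58.8 and 48.0. The highest shRNA-1 library stood apart from the others of its group, which lay inside the control range. The log2 fold change was 0.10 ± 0.21 with shRNA-1 (interval -0.35 to 0.56, adjusted p = 0.737) and 0.63 ± 0.21 with shRNA-2 (adjusted p = 0.0252). The shRNA-2 call was lost without shRNA-2 replicate 2 (0.48, adjusted p = 0.0913), without shRNA-2 replicate 3 (0.65, adjusted p = 0.0514), without control replicate 1 (0.50, adjusted p = 0.0874), with total-count scaling (0.39, adjusted p = 0.110) and with the ribosomal RNA share of each library as a covariate (0.43, adjusted p = 0.125).

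Fas and Tnfrsf10b encode the death receptors for Fas ligand and TRAIL, which start the extrinsic pathway of apoptosis. Fas (chr19:34290666-34327772, plus strand) measured 6.03, 6.36 and 6.99 CPM in the controls, 8.90, 12.7 and 14.3 with shRNA-1 and 15.8, 16.9 and 16.7 with shRNA-2. The 3 groups were separate, and the shRNA-2 libraries lay close together. It rose 1.86-fold with shRNA-1 (log2 0.89 ± 0.18, adjusted p = 0.00304) and 2.54-fold with shRNA-2 (log2 1.35 ± 0.18, adjusted p = 8.51e-05).

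Tnfrsf10b (chr14:69767472-69784411, plus strand) was at 10.1, 11.1 and 12.0 CPM in the controls, 10.4, 16.6 and 15.3 with shRNA-1 and 11.7, 12.3 and 14.0 with shRNA-2. Both hairpin groups overlapped the control. The log2 fold changes were 0.35 ± 0.18 (interval -0.03 to 0.74, adjusted p = 0.143) and 0.19 ± 0.18 (interval -0.19 to 0.58, adjusted p = 0.395). Without shRNA-1 replicate 1, the lowest of its group, the shRNA-1 value was 0.52 and was called (adjusted p = 0.0329).

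Fdxr (chr11:115268024-115277050, minus strand) encodes ferredoxin reductase, a mitochondrial enzyme that feeds electrons to iron-sulfur cluster assembly and steroid synthesis. Its level was 17.2, 15.6 and 18.1 CPM in the controls, 11.3, 10.5 and 7.01 with shRNA-1 and 12.1, 8.82 and 10.5 with shRNA-2. All 6 hairpin libraries lay below the controls, opposite to the 5 genes that rose with both hairpins. Its log2 level fell by 0.82 ± 0.19 with shRNA-1 (adjusted p = 0.00656) and by 0.70 ± 0.19 with shRNA-2 (adjusted p = 0.00867). In bulk RNA of this kind, fewer cells that express a gene and less RNA per cell cannot be told apart.

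**Figure D2:**
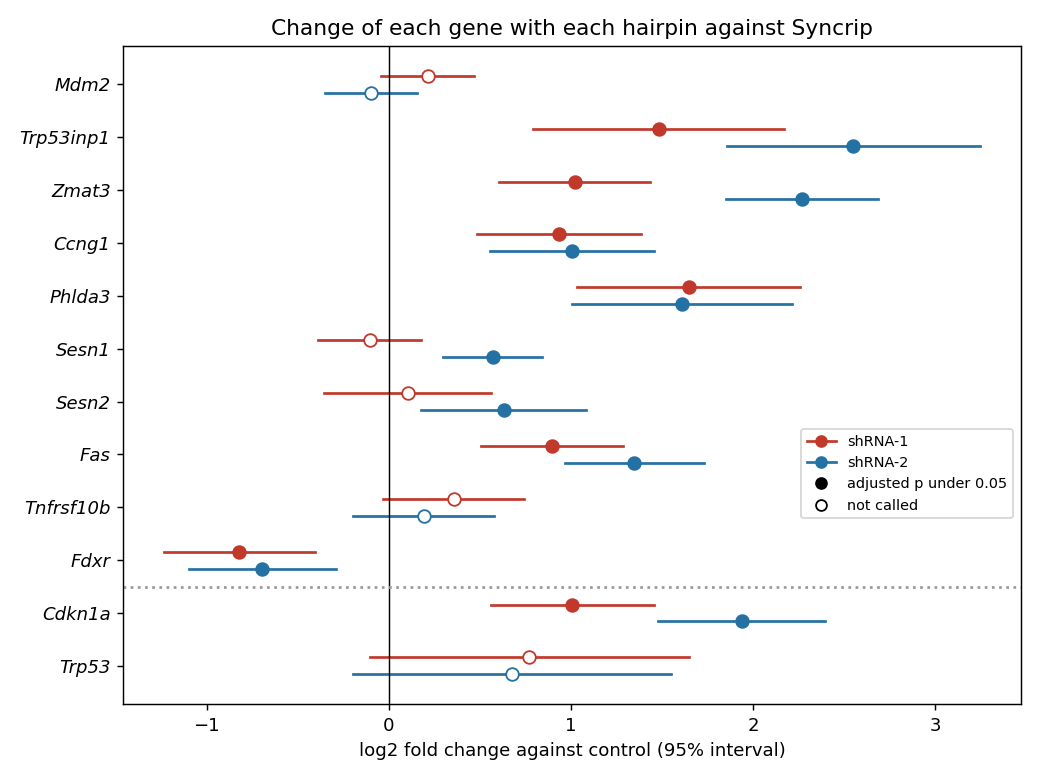
The log2 fold change against control of the 10 genes and, below the dotted line, of Cdkn1a and Trp53, with 95% intervals from edgeR. Red is shRNA-1, blue shRNA-2, and filled points had an adjusted p under 0.05. Among the 10 genes the shRNA-1 values span -0.82 to 1.65 and the shRNA-2 values -0.70 to 2.55.

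The hairpins were also compared with each other. None of the 10 genes was called higher with shRNA-1 than with shRNA-2 by edgeR (1 at an unadjusted p under 0.05, 0 by DESeq2 and 1 by limma-voom), where 19.7% of all genes were, and 3 were called lower, where 21.3% were. Zmat3 was lower by a log2 difference of -1.25 ± 0.19 (adjusted p = 0.000298), Trp53inp1 by -1.07 ± 0.30 (adjusted p = 0.0145) and Sesn1 by -0.67 ± 0.13 (adjusted p = 0.00150). The hairpin groups did not overlap for Zmat3 or Sesn1 and overlapped for Trp53inp1, whose difference missed the threshold without shRNA-2 replicate 3 (-0.97, adjusted p = 0.0521). Syncrip itself was lower with shRNA-1 than with shRNA-2 (log2 difference -1.68 ± 0.15, adjusted p = 9.67e-06), so for these 3 genes the hairpin that left more Syncrip RNA had the higher level.

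For the other 7 genes the difference between hairpins was not called. Fas stood at -0.45 ± 0.17 (adjusted p = 0.0544), Sesn2 at -0.53 ± 0.21 (adjusted p = 0.0630) and Mdm2 at 0.31 ± 0.12 (adjusted p = 0.0504), and each passed the threshold in some of the other settings. Without shRNA-1 replicate 3, Fas (-0.59) and Sesn2 (-0.77) were both called, which raised the count from 3 to 5 genes. For Ccng1 the difference was -0.07 ± 0.20 with an interval of -0.52 to 0.37, and for Phlda3 0.04 ± 0.26 with an interval of -0.54 to 0.62, so these data leave room for differences of that size in either direction.

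Libraries within a hairpin group differed in the same sense across the 5 genes that rose with both, though not across all 10. Fdxr was highest in replicate 1 of both hairpin groups, and Sesn1 was lowest in shRNA-1 replicate 3. The library numbered replicate 1 had the lowest level of its group for all 5 genes that rose with both hairpins, in shRNA-1 as in shRNA-2, and for 3 of the 5 in the control. Cdkn1a, the cell cycle inhibitor p21 and the best-known p53 target, followed that pattern at 373, 517 and 700 CPM with shRNA-1 and 873, 1111 and 1044 with shRNA-2, over 234, 290 and 267 in the controls. It rose by 1.01 ± 0.20 and 1.94 ± 0.21 on the log2 scale (adjusted p = 0.00330 and 2.37e-05), and the shRNA-1 call was lost with the ribosomal RNA share of each library as a covariate (0.69, adjusted p = 0.135). Leaving out the first replicate of each hairpin gave 7 called genes with shRNA-1 and 8 with shRNA-2, and the count that rose with both stayed at 5. The libraries left out were the lowest for these 5 genes, so that fit is no check on their rise.

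The transcript of p53 itself went the other way among replicates. Trp53 (chr11:69580359-69591873, plus strand) was at 84.6, 63.2 and 29.2 CPM in the controls, 139, 92.2 and 70.6 with shRNA-1 and 147, 79.2 and 55.7 with shRNA-2, and replicate 1 was the highest of every group. The groups overlapped, while among libraries of the same number both hairpin libraries stood above the control. The labels name no source that such libraries share, and the fit with a replicate block is given with the other settings. In the main fit the log2 fold change of Trp53 was 0.77 ± 0.40 with shRNA-1 (adjusted p = 0.157) and 0.68 ± 0.40 with shRNA-2 (adjusted p = 0.182). It was called with both hairpins when no filter on low counts was applied (adjusted p = 0.00132 and 0.00229). That setting moved adjusted p-values of other genes too, at similar log2 values. With shRNA-1 it took Cdkn1a from 0.00330 to 8.85e-07 and Rfwd2, a ubiquitin ligase for p53, from 0.0101 to 0.0461. p53 is controlled mostly as a protein, which was not measured here.

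Markers of other cells and signs of library quality were set beside these results. The 8 leukaemia markers (Ptprc, Itgam, Spi1, Cebpa, Hoxa9, Meis1, Kit and Mpo) were detected in every group, with 1 called higher and 4 lower with each hairpin and 2 lower with both. Of all tested genes, 17.4% were called higher and 17.3% lower with shRNA-1, 24.4% and 24.2% with shRNA-2, and 9.57% lower with both. Hoxa9, a driver of self-renewal in this leukaemia, averaged 399 CPM in control libraries, 272 for shRNA-1 and 147 for shRNA-2. The myeloid granule gene Mpo averaged 21.1, 526 and 8.64 CPM, Kit 6.40, 8.29 and 3.67, and Itgam 177, 167 and 339. Of the T cell, B cell and erythroid lists, Cd3g, Cd8a, Trac, Cd79a and Alas2 had no count in any library. Of the 7 B cell genes 5 averaged under 1 CPM in every group, while Cd79b averaged 15.7, 12.6 and 12.6 CPM in control, shRNA-1 and shRNA-2. Of 7 stroma and endothelium genes 4 averaged under 1 CPM in every group, while Pecam1 averaged 23.7, 6.59 and 18.1 CPM. The T cell list summed to 6.10 to 7.47 CPM in the controls, 5.49 to 6.30 with shRNA-1 and 22.1 to 32.5 with shRNA-2, most of it from Cd28 (mean 23.6 CPM with shRNA-2). The 12 mature neutrophil genes summed to 12237 to 12693 CPM in the controls, 29110 to 37271 with shRNA-1 and 35341 to 50238 with shRNA-2. S100a8 (mean 5607, 17771 and 21556 CPM in control, shRNA-1 and shRNA-2) and S100a9 (4828, 10976 and 13879) made up most of these sums. Of the 11 tested, 10 were called higher with shRNA-1, and 9 were called higher and 1 lower with shRNA-2. The 12 macrophage genes summed to 458 to 667, 849 to 2006 and 1668 to 3248 CPM, with 4 and 12 of 12 called higher, and replicate 1 had the lowest sum in each group. The neutrophil and macrophage sums were higher with both hairpins, as were the p53 targets that rose with both. Hoxa9 was lower with both, and Mpo and Kit averaged above the control with shRNA-1 and below it with shRNA-2. The part of these myeloid and leukaemia genes in the p53 target levels was not tested.

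The share of counts from ribosomal RNA was 6.97% ± 1.92 (SD, n = 3) for the control hairpin, 15.4% ± 3.69 for shRNA-1 and 10.7% ± 4.84 for shRNA-2, and the shRNA-1 range of 12.0 to 19.3% lay above the control range of 4.77 to 8.29%. With the share as a covariate in the fit, 0 of the 10 genes were called with shRNA-1 by edgeR, 3 of them at an unadjusted p under 0.05, while 1358 of all genes were called, against 4389 without it. The log2 values under the covariate were 0.91 for Trp53inp1, 0.74 for Zmat3, 0.36 for Ccng1, 1.25 for Phlda3, 0.85 for Fas and -0.41 for Fdxr (adjusted p between 0.0566 and 0.292). With shRNA-2, 7 of the 8 calls were made with the covariate. Because the shares of control and shRNA-1 do not overlap, the group and the ribosomal RNA share can hardly be told apart for that hairpin. Leaving out the library with the most ribosomal RNA in each hairpin group gave 6 and 8 called genes.

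**Figure D3:**
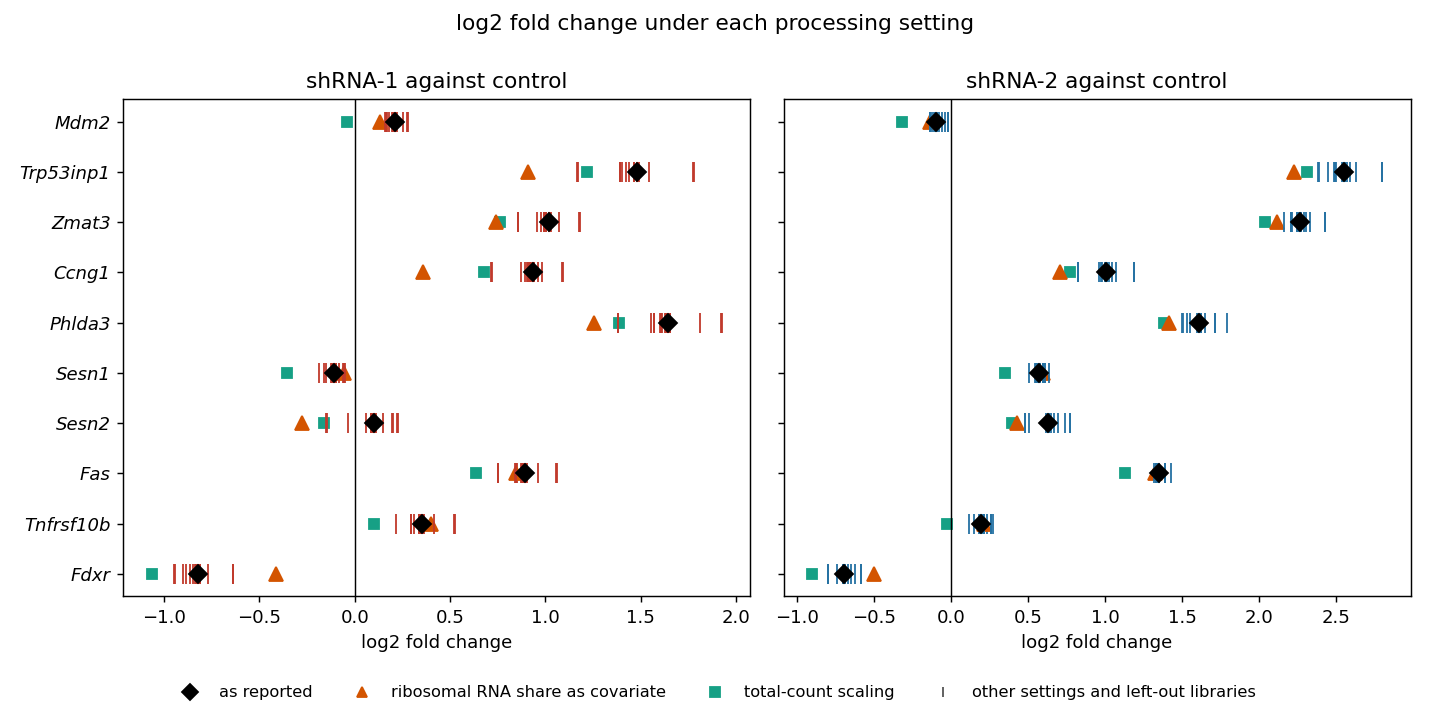
The log2 fold change of each gene under the fit as reported (diamonds), with the ribosomal RNA share as covariate (triangles), with total-count scaling (squares) and under the other settings and left-out libraries (ticks), for shRNA-1 on the left and shRNA-2 on the right. Trp53inp1, Zmat3, Ccng1, Phlda3 and Fas stay above 0 and Fdxr below 0 under every setting shown, with Ccng1 down to 0.36 for shRNA-1 under the covariate.

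A wider list of 36 other p53 targets, with Cdkn1a among them, had 32 tested genes. With shRNA-1, 14 were called higher and 4 lower, beside 17.4% and 17.3% of all genes, and with shRNA-2 15 higher and 2 lower, beside 24.4% and 24.2%. The median log2 fold change was 0.31 and 0.30. The genes called lower with shRNA-1 were Gadd45a (log2 -0.72), Pmaip1 (-0.46), Trp53i11 (-1.16) and Ephx1 (-1.40). Those called lower with shRNA-2 were Rrm2b (-0.79) and Tigar (-0.52), and 0 were called lower with both, beside 9.57% of all genes. With the ribosomal RNA covariate shRNA-1 had 2 of the 32 called higher and shRNA-2 had 14. Of all 12663 tested genes that fit called 827 and 2912 higher. The 9 called higher with both hairpins were Slc19a2, Plk2, Gdf15, Cdkn1a, Rap2b, Btg2, Bax, Ei24 and Bbc3, 9 of 32 beside the 9.24% of all genes. Slc19a2, a thiamine transporter, was at 6.47 ± 1.24 CPM in the controls (mean ± SD, n = 3), 34.1 ± 8.85 with shRNA-1 and 33.9 ± 5.77 with shRNA-2, and had log2 fold changes of 2.39 and 2.38. Plk2, a kinase of centrosome duplication, rose by 1.40 and 1.85, and Gdf15, a secreted stress cytokine, by 1.15 and 2.02. The Gdf15 call with shRNA-1 was lost without shRNA-1 replicate 3 (0.72, adjusted p = 0.0900). Without control replicate 1 the count called higher with both was 6, and with the ribosomal RNA covariate it was 1.

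Perp and Ephx1, picked after their values were seen, were the widest apart between hairpins in this list. Perp, a membrane protein of desmosomes and apoptosis, averaged 0.198 CPM in controls and 0.155 with shRNA-1, against 1.82 with shRNA-2. Ephx1, an epoxide hydrolase, was at 1.04, 0.375 and 3.21 CPM and was called lower with shRNA-1 (-1.40, adjusted p = 0.0167) and higher with shRNA-2 (1.62, adjusted p = 0.000627). Both are at low levels, so few counts stand behind these values.

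**Figure D4:**
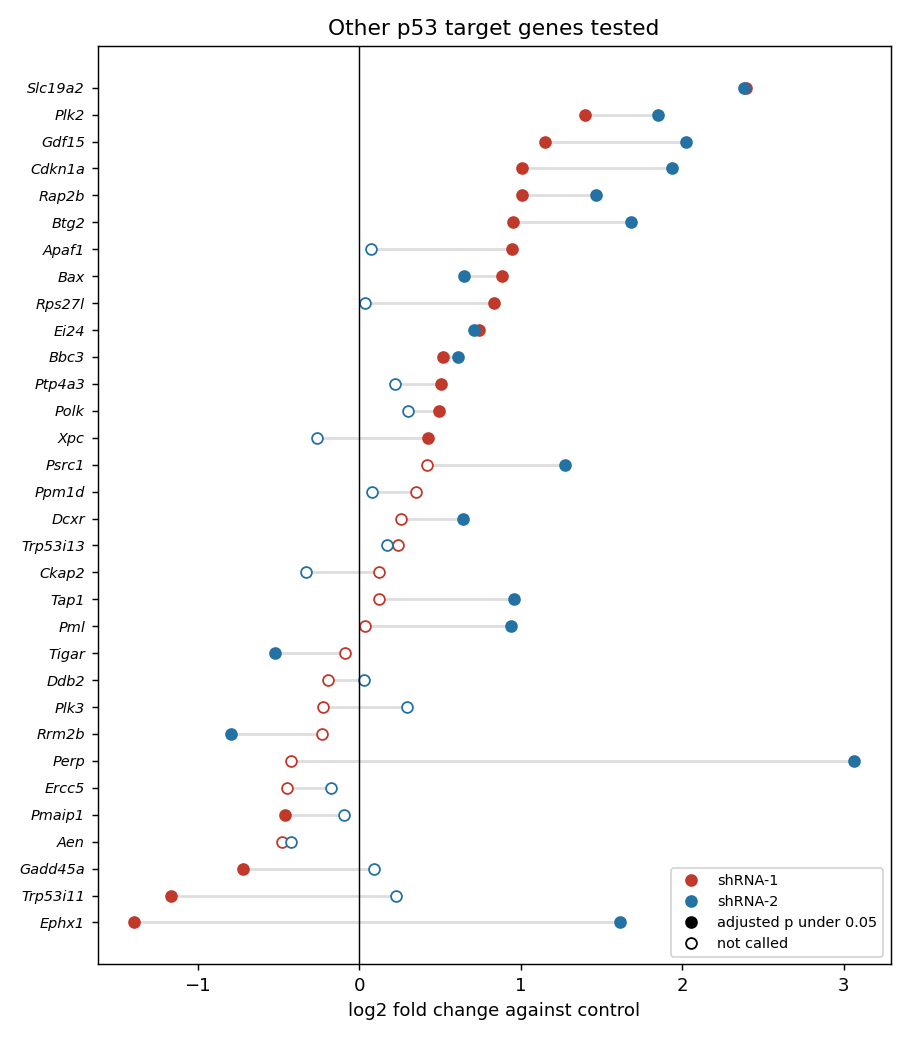
The log2 fold change against control of the 32 tested genes of the wider p53 target list, ordered by the shRNA-1 value. Red is shRNA-1, blue shRNA-2, filled points had an adjusted p under 0.05, and grey lines join the 2 values of a gene. Slc19a2 lies at 2.39 and 2.38, and Perp and Ephx1 show the widest gaps.

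Of 25 tested regulators of p53, 4 rose and 7 fell with shRNA-1, and 4 rose and 11 fell with shRNA-2 (median log2 fold change -0.16 and -0.29). Over all genes 17.4% rose and 17.3% fell with shRNA-1 and 24.4% rose and 24.2% fell with shRNA-2, so the count that rose lay near or below that share. In the main fit 2 rose and 5 fell with both hairpins, beside 9.24% and 9.57% of all genes. With total-count scaling 1 rose and 12 fell with shRNA-1, where 1084 of all 12663 tested genes rose and 3465 fell. With the ribosomal RNA covariate 2 rose and 2 fell with shRNA-1, where 827 of all 12663 rose and 531 fell. Rchy1, a ubiquitin ligase for p53 that p53 also induces, went from 20.1 ± 2.52 CPM to 44.0 ± 10.8 and 42.5 ± 10.9 (log2 1.12 and 1.08). Rfwd2, another ligase for p53, rose by 0.47 and 0.80, and its shRNA-1 call was lost without shRNA-1 replicate 3 (0.41, adjusted p = 0.0509), with total-count scaling (0.22, adjusted p = 0.187) and with the ribosomal RNA covariate (0.38, adjusted p = 0.171). Among those that fell with both, Setd7, a methyltransferase that modifies p53, went from 52.0 ± 1.95 CPM to 26.2 ± 0.69 and 28.9 ± 3.16 (log2 -0.99 and -0.85). Hipk2, a kinase that phosphorylates p53, fell by 1.22 and 0.62, Brd7, a coactivator, by 0.75 and 0.84, and Trp53bp1, a damage response adaptor, by 1.17 and 0.61. The Trp53bp1 call with shRNA-2 was lost when any of several single libraries was left out, for example control replicate 3 (-0.52, adjusted p = 0.137).

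Around the sestrins, 20 genes of the mTORC1 pathway were tested. With shRNA-1, 3 rose and 6 fell, and with shRNA-2 3 rose and 5 fell (median -0.08 and -0.16). Over all genes 17.4% rose and 17.3% fell with shRNA-1, and 24.4% rose and 24.2% fell with shRNA-2. The rises and the shRNA-2 falls of the list lay near or below these shares, while its shRNA-1 falls lay above theirs. With both hairpins 3 fell, beside 9.57% of all genes. With the ribosomal RNA covariate 1 of the 20 was called lower with shRNA-1, beside 531 of all 12663 tested genes. Rragc, a GTPase that carries amino acid signals to mTORC1, rose by 0.52 and 0.78. Tsc1, a brake on mTORC1, fell by 0.74 and 0.98, Mios, a subunit of the GATOR2 complex that sestrins bind, by 0.65 and 1.17, and Rptor, the scaffold of mTORC1, by 0.73 and 0.62. The Tsc1 call with shRNA-1 was lost without control replicate 3 (-0.60, adjusted p = 0.0589).

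Of 17 tested genes of the death receptor pathway, 3 rose and 1 fell with shRNA-1, and 7 rose and 2 fell with shRNA-2 (median 0.10 and 0.25). The shRNA-1 rises lie at the 17.4% of all genes, and the shRNA-2 rises are read beside 24.4%. The falls lie below the 17.3% and 24.2% of all genes that fell with shRNA-1 and shRNA-2. Tnfrsf26 and Tnfrsf23, which encode receptors of the TRAIL receptor family, were among the 3 that rose with both, beside 9.24% of all genes. Tnfrsf26 went from 39.1 ± 1.90 CPM to 68.2 ± 7.11 and 67.9 ± 9.78 (log2 0.81 and 0.80). Tnfrsf23 (0.71 and 1.44) was near the threshold with shRNA-1 (adjusted p = 0.0496) and lost that call without control replicate 2 (0.65, adjusted p = 0.145).

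Among 14 tested partners of Fdxr in iron-sulfur and steroid metabolism, 5 rose with shRNA-1, and 3 rose and 3 fell with shRNA-2 (median 0.24 and -0.06). The all-gene share that rose was 17.4% with shRNA-1, and with shRNA-2 24.4% rose and 24.2% fell, near the counts of this list for that hairpin. Hscb, a chaperone of iron-sulfur cluster transfer, rose by 1.39 and 1.01, and Iscu, the scaffold on which clusters form, by 0.53 and 1.27, while Fdxr fell with both hairpins. The Iscu call with shRNA-1 was lost without control replicate 2 (0.51, adjusted p = 0.0866). With the ribosomal RNA covariate the list genes described above that were still called with shRNA-1 were Slc19a2, Rchy1, Setd7, Hipk2, Tnfrsf23 and Hscb.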

How the data were processed

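Per the labels' protocols, oligo-dT primed the first cDNA strand of all 9 libraries and random decamers the second, so tail ends of transcripts weigh more. The authors deposited raw counts for each gene symbol, 1 table per library. STAR 2.3.0e, HTSeq 0.6.0 and the build mm10 are named in the submitters' processing notes. No source used here gives the strand setting or annotation release. Totals ran from 9559638 to 19483923 counts per library, and the 10 genes had 76 to 3989 counts per library, which limits the precision of the lowest. No member shares exonic bases with another gene in GENCODE M21.

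Counts were summed per symbol, filtered with filterByExpr (12663 of 38926 symbols) and scaled with TMM factors. All 9 libraries were fitted together by group alone (edgeR 4.0.16, R 4.3.3, quasi-likelihood test). p-values were Benjamini-Hochberg adjusted over all tested genes and called under 0.05. Levels are scaled CPM. The pipeline was tested on simulated counts.

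The members, the lists and the tests were chosen with earlier results of these data known. Named were all 10 members, Syncrip, Trp53 and Cdkn1a, and per list up to 4 rises and 4 falls called with both hairpins, by the smaller absolute log2 fold change. In the wider p53 target list, all genes called higher with both or lower with either hairpin were listed as well. Some items that the rule picked are not reported here. Alternatives were DESeq2 1.42.0, limma-voom (limma 3.58.1), DESeq2 size factors, total counts, no filter, a filter of 5 CPM in 3 libraries, a replicate block, a ribosomal RNA covariate, only the groups compared and each library left out in turn. Leaving out 2 libraries at once was added after seeing the data.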

Additional observations from a re-analysis of the deposited data

Results flagged for a closer look

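Zmat3, Trp53inp1 and Sesn1 changed by different amounts with the hairpins, by edgeR's direct test between them. The change with shRNA-1 minus that with shRNA-2 was -1.25 (log2) for Zmat3, -1.07 for Trp53inp1 and -0.67 for Sesn1, and all 3 were higher with shRNA-2, the hairpin that left more Syncrip RNA. Zmat3 and Trp53inp1 rose with both hairpins, whereas Sesn1 rose with shRNA-2 and overlapped the control with shRNA-1.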

How the results depend on the processing

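With shRNA-1 the fit with the ribosomal RNA covariate called 0 genes instead of 6 (3 at an unadjusted p under 0.05 by edgeR), and leaving out 1 library at a time gave 6 to 7. With shRNA-2 the count was 8, and 7 to 8 when 1 library was left out. Between hairpins it was 3, with 5 by DESeq2, 5 by limma-voom, 6 with a replicate block and 2 to 5 with 1 library left out. No called gene changed sign in any of the 20 settings. The count of 5 genes higher and 1 lower with both hairpins held in all of them except the covariate fit, where it was 0 and 0. Total-count scaling lowered the share of higher calls among all genes to 23.8% for shRNA-1 (50.1% as reported) and 33.6% for shRNA-2 (50.2% as reported). Same-numbered libraries were not taken as pairs, since the labels name no shared source. Not all of their deviation correlations between groups were over 0.1 either (6 of 9 pairs, range -0.13 to 0.34). In 6 of the 9 pairs, though, the correlation exceeded those with the other libraries of the second group. With the replicate block Trp53 was called with both hairpins (0.84 and 0.68, adjusted p = 0.00133 and 0.00248). Of the 19 list genes that the naming rule picked, 7 had a call that depended on 1 library (among them Gdf15, Rfwd2, Trp53bp1, Tsc1, Tnfrsf23 and Iscu). Genes with under 100 counts in a library, namely Phlda3, Fas, Tnfrsf10b and Fdxr, carry the most counting error. The cause of these shifts was not tested.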
